A study of Homo sapiens with 4 samples.

Results

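The Krüppel-like factors are zinc finger transcription factors, and the genes described here are the 10 members KLF2, KLF3, KLF4, KLF5, KLF6, KLF7, KLF9, KLF10, KLF11 and KLF13. They were chosen from the gene symbols of the deposited table with earlier results of these data known, and all 10 were found among its 13957 genes. RNA was sequenced from MDA-MB-231 Fluc cells, a triple-negative breast cancer line that carries an inserted luciferase gene. Cordycepin at 50 μM was given to 2 samples and its vehicle DMSO to the other 2, and cells were exposed for 2 h. Cordycepin is an adenosine analogue that lacks the 3′ hydroxyl group. The labels do not say whether the samples of a group came from separate cultures.

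For each gene, the deposited table gives a single mean level over the libraries, as log2 CPM (read counts scaled to a common library size). Each value below is therefore a mean over treated and control samples together, and the level under cordycepin and under DMSO cannot be told apart. The authors' own comparison of the treatments was not used. No library's depth is known, the spread between samples cannot be given, and no test was made. A gene with little RNA per cell and one made by few of the cells give the same value.

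Krüppel-like factors bind GC-rich DNA and CACCC boxes through a run of zinc fingers at the C terminus. The N termini differ and set the partners of each protein. KLF3 binds CtBP corepressors. KLF2, KLF4, KLF5, KLF6 and KLF7 are mainly activators, several of which recruit acetyltransferases. KLF9, KLF10, KLF11 and KLF13 bind the corepressor SIN3A. Several of these genes respond quickly to growth factors, shear stress or TGF-β, and KLF4 and KLF5 are known for their roles in epithelial cells.

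AU-rich elements in the 3′ UTR, the untranslated end of an mRNA, mark many short-lived transcripts. A 7-letter form of such an element, TATTTAT, was found in the 3′ UTR of 6 of the 10 genes, once in each. Among genes of the table with a 3′ UTR in the same range of lengths, 48.4% hold it, so that 6 of 10 is near the background. The stretches are shown so that the element and the bases around it can be compared between the genes that hold it. Each is 30 bases of the mRNA strand in GRCh38, 5′ to 3′, with the element in capitals.
KLF2, chr19:16327101-16327130, plus strand: actgtgactggTATTTATtggacccagaga
KLF3, chr4:38701332-38701361, plus strand: cttgtatttgtTATTTATgaacccctgcct
KLF5, chr13:73077177-73077206, plus strand: ttgtttatcttTATTTATtttgtggtaata
KLF6, chr10:3778340-3778369, minus strand: tatgtttctctTATTTATgccttgaggact
KLF7, chr2:207075428-207075457, minus strand: gccttctctggTATTTATaatatatcacag
KLF11, chr2:10052880-10052909, plus strand: ttttagaaaaaTATTTATattgttggtgct

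Levels of different genes were compared per length, by dividing CPM by the gene length that the table gives in kb. KLF6, an activator found in most tissues, had the highest level of the 10 genes, and KLF10, a TGF-β-inducible repressor, the next. KLF6 was at 3.96 log2 CPM per kb and KLF10 at 3.28, a ratio of 1.60. Both were above the median of all genes, which was 2.43, and the other 8 genes were below it. The median of the 10 genes was 1.46. From the lowest gene to the highest the level per kb rose 40.5-fold. KLF6 and KLF10 together made up 55.3% of the summed CPM per kb of the 10 genes, and KLF6 alone 34.0%.

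**Figure D1:**
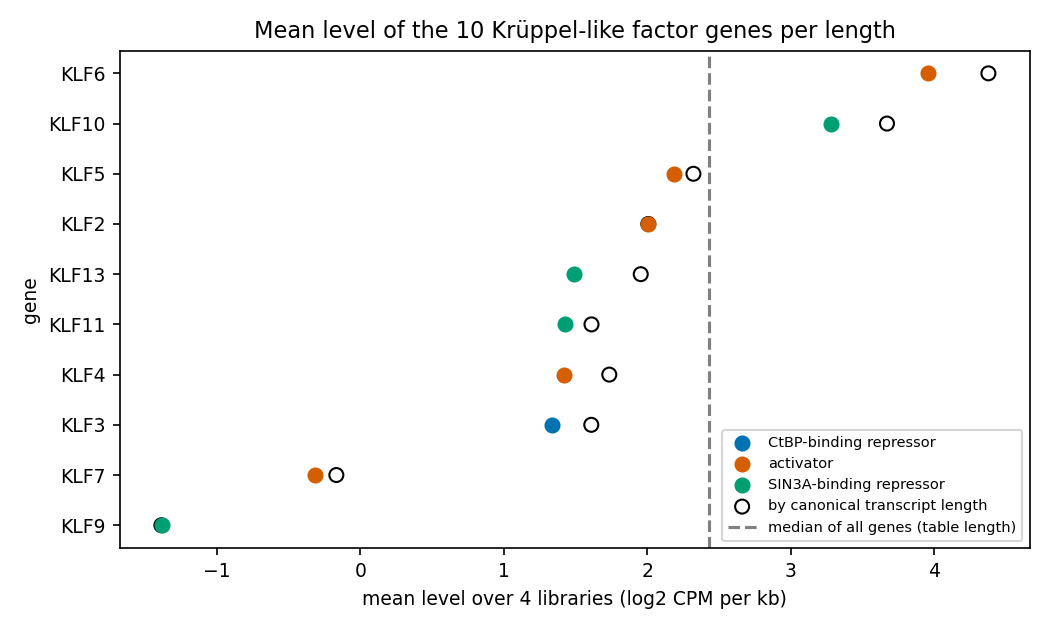
Mean level of each gene over the 4 libraries, in log2 CPM per kb (x axis), with genes ordered from highest to lowest (y axis). Filled points use the gene length of the table and are coloured by class, open points use the length of the canonical transcript, and the dashed line is the median of all genes by the length of the table, 2.43, which becomes 3.04 with canonical lengths. KLF6 and KLF10 lie above the median with both lengths, and no error bars are drawn because the table holds 1 value per gene.

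Among the activators, KLF6 (chromosome 10, 3775996 to 3785281) had a mean level of 6.58 log2 CPM before division by length, which was above that of 82.9% of the genes in the table. KLF5 (chromosome 13, 73054976 to 73077541), which drives the growth of epithelial progenitors, followed with 2.19 log2 CPM per kb. KLF2 (chromosome 19, 16324826 to 16328685), known for keeping endothelial and T cells quiescent, had 2.01 log2 CPM per kb. KLF4 (chromosome 9, 107484852 to 107490482), a factor of epithelial differentiation and of reprogramming to pluripotency, had 1.42. The lowest activator was KLF7 (chromosome 2, 207074137 to 207167267), known for its role in neurons, with -0.31 log2 CPM per kb. Its level per kb was above that of only 10.2% of genes. The activators thus covered most of the range of the whole set, and they held 60.4% of its summed CPM per kb. Most of this share was KLF6, which alone held 34.0% of the sum over the set.

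The SIN3A-binding repressors also differed widely in level. KLF10 (chromosome 8, 102648784 to 102655725) had 5.22 log2 CPM before division by length, above 60.6% of genes. KLF13 (chromosome 15, 31326835 to 31435665), a regulator of cytokine genes in T cells, had 4.73 log2 CPM. Divided by the gene length of 9429 bases, this came to 1.49 per kb. KLF11 (chromosome 2, 10042849 to 10054836), the other TGF-β-inducible repressor of the set, had 1.42 log2 CPM per kb. KLF9 (chromosome 9, 70384597 to 70414624), which is induced by glucocorticoid and thyroid hormone, was the lowest of the 10 genes, with 0.99 log2 CPM and -1.38 per kb. Its mean level was above that of 2.44% of genes, close to the lowest value in the table, 0.56 log2 CPM. These repressors together held 34.1% of the summed CPM per kb of the set.

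KLF3 (chromosome 4, 38664197 to 38701517), the only member that binds CtBP, had 4.09 log2 CPM and 1.33 log2 CPM per kb. By the length of the table, KLF13, KLF11, KLF4 and KLF3 followed each other within 0.158 log2 CPM per kb. The step between KLF11 and KLF4 was 0.0075, and these neighbours changed places when the canonical transcript gave the length. The widest step was that from KLF3 down to KLF7, at 1.65. With canonical lengths, KLF13, KLF11, KLF4 and KLF3 had 1.96, 1.61, 1.74 and 1.61. KLF13 was then nearer to KLF2, at 2.01, than to KLF4. Whether neighbouring genes differ beyond the spread between samples was not tested, as the table holds no values per sample.

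The family as a whole was also examined. Of the 18 KLF genes, 12 were in the table. Besides the 10 members these were KLF12, a CtBP-binding repressor, and KLF16, a SIN3A-binding repressor, which are not in the set described here. KLF16 had 4.21 log2 CPM per kb by the length of the table, compared with 3.96 for KLF6. This order turned with the length of the canonical transcript, which gave 4.25 for KLF16 and 4.38 for KLF6, and before division by length, where KLF16 had 5.78 log2 CPM and KLF6 6.58. KLF12 had 0.83 log2 CPM per kb. KLF1, KLF8, KLF14, KLF15, KLF17 and KLF18 were not among the genes of the table. How low counts were filtered is not given in the sources used here, so a gene outside the table cannot be given a level. The Sp factors share the zinc fingers and the GC-rich sites of this family, and 6 of 9 were in the table. The broadly acting SP1 and SP2 had 3.23 and 3.44 log2 CPM per kb, near KLF10, and SP3 had 2.56, between KLF10 and KLF5. SP4, SP5 and SP6 had -0.24, 0.86 and -0.16, near KLF7 and KLF12. SP7, SP8 and SP9 were not listed.

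**Figure D2:**
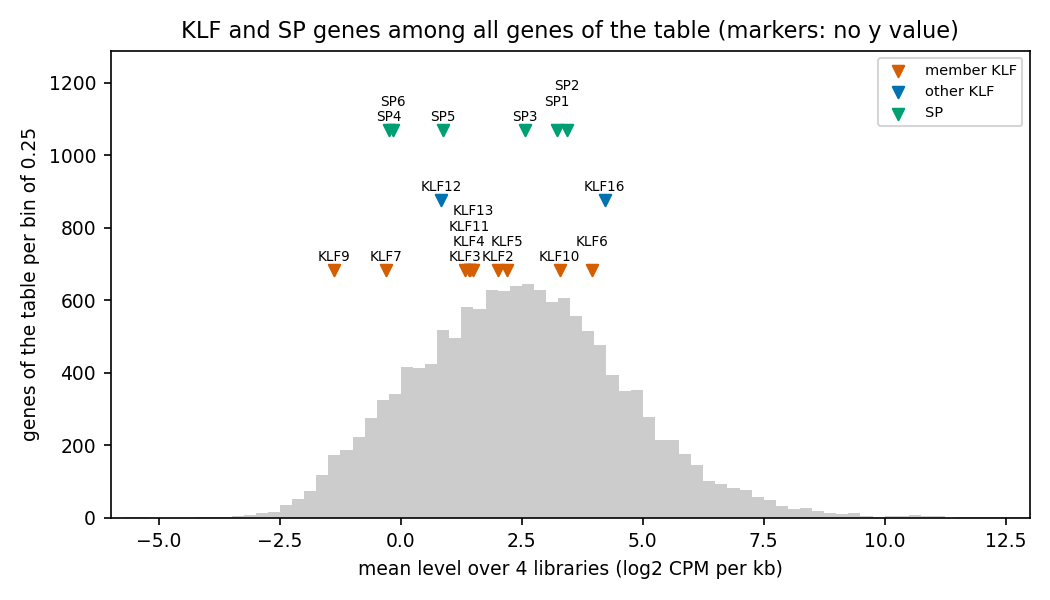
Number of genes of the table in bins of 0.25 (y axis) by mean level over the 4 libraries in log2 CPM per kb (x axis). Triangles above the histogram mark the 10 members, the 2 other KLF genes and the 6 SP genes at their level, and their height has no meaning. Of the members, 8 lie below the median of all genes, 2.43, while KLF6, KLF10, KLF16, SP1, SP2 and SP3 lie above it.

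A list of 18 cofactors and regulators of these proteins was written from general knowledge, and all 18 were in the table. Of these, 9 were above the median of all genes per kb, and their median was 2.49 log2 CPM per kb. These levels are by the length of the table, and canonical lengths moved some of them more than any member. The corepressor genes CTBP1 and CTBP2 had 4.17 and 2.34, compared with 1.33 for KLF3. With canonical lengths these 3 genes had 5.92, 2.73 and 1.61. SIN3A and SIN3B, the scaffolds of the SIN3 complexes, had 2.38 and 2.97, and the deacetylase genes HDAC1 and HDAC2 had 5.68 and 3.97. The acetyltransferase genes EP300 and CREBBP had 2.13 and 1.83 log2 CPM per kb. Among upstream genes, SRF, which drives serum-responsive transcription, had 5.45. MAP2K5 and MAPK7, the kinases that induce KLF2 and KLF4 through MEF2 factors, had 1.07 and 1.38. MEF2A and MEF2D had 2.60 and 2.62, while MEF2C had -1.89. This was below KLF9 by the length of the table, but with canonical lengths MEF2C had -1.20 and KLF9 -1.39. The ubiquitin ligase genes that act on KLF proteins had 3.12 for WWP1, 0.27 for FBXW7, 0.97 for FBXO32 and 3.36 for VHL.

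The cell line was checked against markers. VIM, CD44, EGFR and CAV1, which mesenchymal breast cancer lines express, lay between 5.0 and 8.30 log2 CPM per kb, and SPARC was not listed. ESR1 and PGR, the hormone receptor genes, were not listed either. ERBB2, CDH1, EPCAM and GATA3, which were expected to be low, lay between 1.07 and 3.13 log2 CPM per kb. By the length of the table, ERBB2, at 3.13, and GATA3, at 2.72, were above the median of all genes. With canonical lengths the median was 3.04. ERBB2 was then above it, EPCAM, at 3.05, was just above it, and GATA3, at 2.86, was below it.

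The 10 genes lie on 8 chromosomes, with KLF7 and KLF11 on chromosome 2, KLF4 and KLF9 on chromosome 9, and the others alone. Their canonical transcripts have 2 to 6 exons. The genes span from 3.86 kb for KLF2 to 108.8 kb for KLF13. The 4 genes that span less than 10 kb, KLF2, KLF4, KLF6 and KLF10, had a median of 2.65 log2 CPM per kb. The 6 longer genes had a median of 1.38. Over all genes of the table these medians were 2.92 and 2.26, so that shorter genes had the higher level there too. Of the 10 genes, 1 had another gene of the table overlapping it or starting within 5000 bases of its start. This was KLF11, with the long noncoding RNA gene AC104794.3 starting 2186 bases away on the opposite strand, at 1.20 log2 CPM. The share of all genes with such a neighbour was not computed, so 1 of 10 cannot be set against a background.

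The 3′ UTRs of the set were long. Their median was 2750 bases in the canonical transcripts, compared with 1372 bases over the 11579 protein-coding genes of the table that have one, and 8 of the 10 were longer than that median. KLF7 had the longest, with 7076 bases, followed by KLF13 with 5600. KLF4 had 899 bases and KLF10 had 1348, both below the median. Of the 10, 8 were also richer in A and U than the median 3′ UTR, which was 57.9% A and U. The exceptions were KLF2, with 48.4%, and KLF13, with 46.3%. KLF6, with 58.0%, and KLF7, with 58.2%, were only just above the median. KLF5, with 68.2%, exceeded 90.1% of genes.

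The 7-letter element in the stretches above was found in the 3′ UTR of 36.7% of all genes, compared with 6 of 10 here. Among the 6842 genes whose 3′ UTR is within the range of lengths of the set, the share was 48.4%. No member had more than 1 copy. At least 2 were found in 16.0% of all genes, of any 3′ UTR length, and with only 10 members this difference was not tested. In KLF2 the element begins at base 81 of the 3′ UTR, close to the stop codon, and in KLF3 it ends 168 bases before the end of the transcript. KLF4, KLF9, KLF10 and KLF13 lack the 7-letter form. All 10 genes hold the 5-letter core ATTTA, which lies within the longer form, as do 73.9% of all genes. The core occurred at a median of 2.32 copies per kb in the set, compared with 1.74 over all genes. KLF5 had the densest, at 3.03 per kb, and KLF13 the sparsest, at 0.893. For the core, the values over all genes are for 3′ UTRs of any length, and the differences from the set were not tested. The 9-letter form TTATTTATT, which contains the other forms, was present only in KLF5 among the 10 genes, and in 9.85% of all genes. Among genes whose 3′ UTR is within the range of lengths of the set, the share was 12.7%. A match to these letters is a description and does not show that the element acts.

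**Figure D3:**
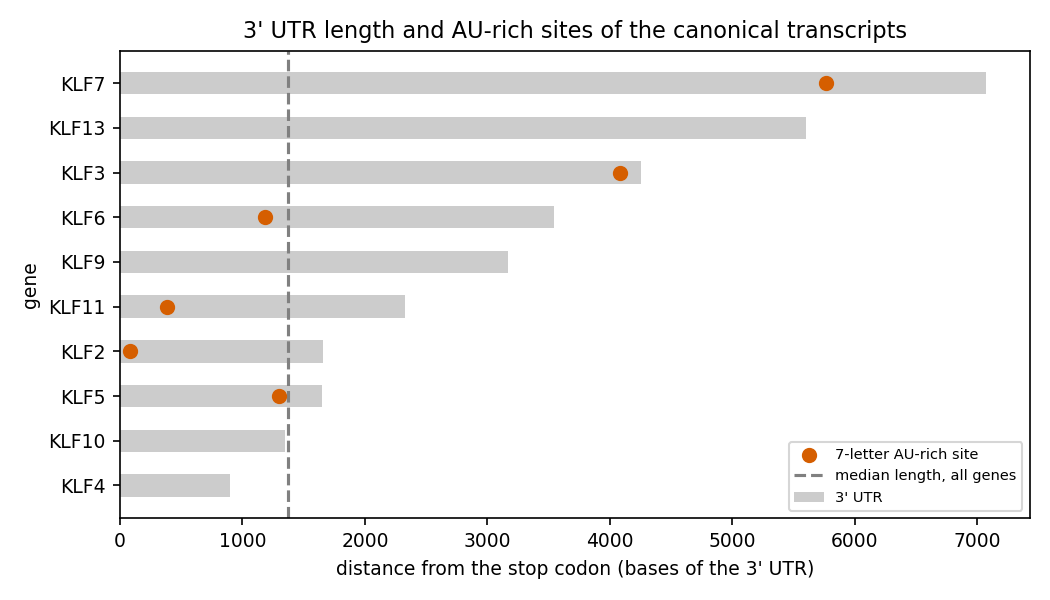
Length of the 3′ UTR of the canonical transcript of each gene (grey bars, in bases from the stop codon on the x axis), ordered by length on the y axis. Points mark the 7-letter element, which is present once in 6 genes, and the dashed line is the median length over all genes, 1372 bases.

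The promoters of the genes were then searched, since members of this family bind GC boxes and CACCC boxes themselves. RefSeq windows, from 250 bases before a RefSeq start to 50 after it in GRCh38.p14, were matched for 8 of the 10 genes by symbol. These starts can differ from the gene starts given above, and the windows of KLF4 and KLF11 lie wholly within the gene. So do the more downstream window of KLF5 and all windows of KLF7 but the most upstream. KLF3 and KLF10 had no entry. KLF5, KLF7 and KLF11 have several starts, so that there were 13 windows. The GC box, GGGCGG on either strand, was found in 7 of the 8 genes, in all but KLF9. Of the genes in the table that have a window, 77.9% hold it in at least 1. KLF11 had 7 matches in a single window, and KLF2 had 6. The CACCC box, CACCC on either strand, was found in KLF5, KLF7, KLF11 and KLF13, compared with 70.2% of the genes in the table. The core of the cAMP response element, TGACG on either strand, was found in KLF4, KLF5, KLF11 and KLF13, compared with 40.6%. KLF5 was the only gene with TATAAA, the letters of a TATA box, on either strand, compared with 8.04% of the genes in the table. The match lay in a single window of KLF5, at position -194 from that start. It does not show that the element acts. One window of KLF7 held a CArG box, the site bound by SRF, which 1.56% of the genes in the table hold.

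**Figure D4:**
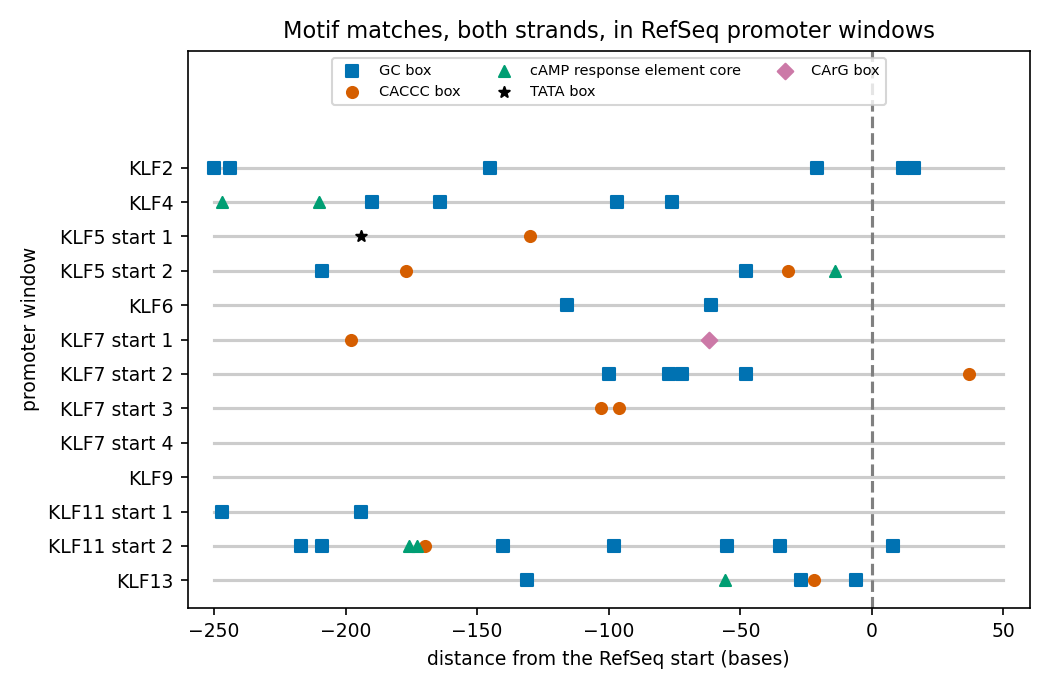
Position of each motif match in bases from the RefSeq start (x axis) in the 13 promoter windows of 8 genes (y axis), with both strands searched and starts of a gene numbered along its strand. GC boxes lie in 8 windows and are most numerous in KLF2 and in the second start of KLF11. The KLF9 window and the most downstream window of KLF7 hold no match.

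The base composition of the windows differed between genes. KLF2, KLF11 and KLF13 had the most G and C, with 80.7%, up to 77.3% and 78.3%, and the KLF9 window had the least, with 32.7%. The median over the windows of genes in the table was 65%, and 8 of the 13 windows were above it. Among the 8 genes with a window, which leave out KLF3 and KLF10, the order of G and C content was not the order of levels. A relation of G and C content or GC boxes to level was not tested. KLF6, with the highest level, had a window of 70.7% G and C with 2 GC boxes. KLF2 and KLF11 had higher G and C content and more GC boxes, and lower levels. KLF7 had 4 GC boxes in a single window and the second lowest level, and KLF9, the lowest, had none.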

How the data were processed

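MDA-MB-231 Fluc RNA-seq libraries (75 bp paired-end, stranded, depleted of ribosomal RNA) were grouped by the treatment in the labels, 2 with cordycepin and 2 with DMSO. According to the methods of the study, the authors used rsubread for mapping and counting, with GRCh38.p13 as the genome. The submitters' processing notes name TopHat, HTSeq, DESeq and Cufflinks, and the difference was not resolved. The deposited table gives 1 level per gene as log2 CPM, read as the mean over all 4 libraries from the name of its column and because no other level is given. Its scaling and low-count filter are not given in the sources used here. It holds 4 columns of the authors' own comparison (log2 fold change, F statistic, p-value and adjusted p-value), which were not used, and 0 columns of values per sample. No group comparison, replicate error or depth could therefore be computed.

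From the deposited log2 CPM, the log2 of gene length in kb was subtracted. The length of the table was within 10% of the summed exons in GENCODE release 44 for all 10 members and for 88.5% of genes. GENCODE gave transcripts and 3′ UTRs, and the printed stretches matched the hg38 genome. Start and end of genes are those of the table, which GENCODE shares for 8 members and 82.1% of genes. Promoters came from RefSeq. Named genes were the members, the Sp and KLF family, a cofactor list, line markers and neighbours within 5000 bases. The members and lists were chosen with earlier results of these data known. Counting functions were tested on made-up sequences. Python 3.11.15, numpy 2.4.6, pandas 2.3.3 and matplotlib 3.10.9 were used.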

Additional observations from a re-analysis of the deposited data

How the results depend on the processing

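With the length of the canonical transcript in place of that of the table, the median level of the 10 genes was 1.85 in place of 1.46 log2 CPM per kb, the median of all genes was 3.04 in place of 2.43, each member moved by less than 1.5-fold, and KLF6 and KLF10 were the only members above the median of all genes in both cases. KLF16 was above KLF6 by the length of the table and below it by that of the canonical transcript. Before division by length, 3 members were above the median of all genes. This was 2 against protein-coding genes and 1 against genes above the first quartile of mean level, where the median itself is higher. With the longest 3′ UTR of each gene, 6 members again held the 7-letter AU-rich form, whereas the 5-letter core was found in 10 and the 9-letter form in 1. With the coding strand alone, the cAMP response element core was found in 2 genes in place of 4, the GC box in 5 in place of 7 and the CACCC box in 3 in place of 4, since a single strand holds fewer matches. The identity of the zinc finger regions, which had been planned, was not run because no table of proteins was used here. Leaving out a sample was not possible because the table holds no values per sample. No paired analysis was possible because the table holds no values per sample either. The unknown depth and spread between samples limit each level given, and genes with a low level such as KLF9 are the least certain.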
